A study of Mus musculus with 8 samples.

Results

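The regions described here are 721 stretches of mouse genome between protein-coding genes at which a FOS peak and a peak of a second list, the IL-33 list, had been merged into 1 region. They were chosen by the presence of a peak of each list, which is a readout of these data, and by a centre outside every protein-coding gene body on the 21 main chromosomes, from 32773 deposited regions; neither property is a result. The other 827 of the 1548 regions with both peaks, which are called shared here, had their centre inside a gene. FOS had been immunoprecipitated with the antibody 9F6 from microglia of the cortex, isolated on a Percoll gradient and collected by cell sorting with markers that are not stated. The 4 mice, at postnatal day 30, had each received IL-33 into the cerebral ventricle of 1 side 4 h earlier. A FOS library and an input were made from every mouse, which gives 4 and 4, all from treated animals. Strain and sex are not stated, no vehicle library was analysed here and the table held no value per library, so nothing below is a comparison of treated with untreated mice or has an error between mice. The name of the IL-33 list reads as IL-33 against vehicle, but the sources used here do not give the assay behind it.

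FOS is an inducible subunit of AP-1, a dimer of leucine zipper proteins that binds DNA and that stimulated immune cells and neurons make quickly. Most AP-1 sites of macrophages lie away from promoters, in enhancers that the lineage factor PU.1 and C/EBP proteins also occupy, and an enhancer can act on a gene far along the chromosome. Microglia are the macrophages of the brain parenchyma, and IL-33 is a cytokine of the interleukin-1 family that signals through the receptor ST2 and the adaptor MYD88.

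The members lay almost entirely outside the listed promoter windows. A promoter window was taken as the RefSeq sequence from 250 bases before to 50 after a transcription start (build GRCm38.p6, the same coordinates as mm10), with 32851 windows of 27025 genes, 17492 of them protein-coding. A window was touched by 11 of 721 members (1.53%, 95% interval 0.764 to 2.71), and all 11 windows belonged to long non-coding RNA genes. No member touched the window of a coding gene (0 of 721, interval up to 0.51%), against 1630 of 12229 FOS-only regions between genes (13.3%, 12.7 to 13.9), where FOS-only means a FOS peak with no peak of the IL-33 list. The same was found for 0 of 519 regions of the IL-33 list alone between genes and 0 of 827 shared regions inside genes. Regions of that list alone inside genes were not counted. Location was set with 21887 coding genes, more than the 17492 with a window. The start of a coding gene without a window could therefore not be counted as touched in any group. Of the 22 members within 1 kb of a coding gene, 6 lay beside a gene without a window. The sources used here do not say whether regions near transcription starts had been taken out of the IL-33 list, and this was not tested.

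The windows of 4 of these non-coding genes show the base sequence that members cover, and were chosen, after their letters were seen, as examples of windows wholly or nearly wholly inside a member with letters of the factors named above; those of Gm32645 (PU.1 letters) and Gm40727 (C/EBP letters) also qualify and are not printed. Each is printed 5′ to 3′ on the strand of its gene from the RefSeq promoter table, cut to the part inside the member. Capitals mark matches on either strand to TGANTCA (AP-1), GAGGAAG (PU.1) or TTGCNNAA (C/EBP). In what follows, the FOS score of a region is the deposited statistic for its FOS peaks, and its calls, from 1 to 4, are the number ending the FOS peak name, taken to count the libraries that held it. Gm41546 (chr17:23967015-23967314, plus strand) lies in the member of ninth highest FOS score, Gm42190 (chr3:19953905-19954204, minus strand) beside the ceruloplasmin gene Cp, Gm33391 (chr8:86920955-86921254, plus strand) towards N4bp1, and Gm51916 (chr11:96988463-96988752, minus strand) beside Sp2.
Gm41546: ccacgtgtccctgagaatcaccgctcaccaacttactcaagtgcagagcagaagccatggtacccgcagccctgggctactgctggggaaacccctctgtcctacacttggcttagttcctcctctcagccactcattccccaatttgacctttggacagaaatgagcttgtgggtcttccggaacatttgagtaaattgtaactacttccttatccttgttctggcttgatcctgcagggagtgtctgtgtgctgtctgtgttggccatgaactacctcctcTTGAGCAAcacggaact
Gm42190: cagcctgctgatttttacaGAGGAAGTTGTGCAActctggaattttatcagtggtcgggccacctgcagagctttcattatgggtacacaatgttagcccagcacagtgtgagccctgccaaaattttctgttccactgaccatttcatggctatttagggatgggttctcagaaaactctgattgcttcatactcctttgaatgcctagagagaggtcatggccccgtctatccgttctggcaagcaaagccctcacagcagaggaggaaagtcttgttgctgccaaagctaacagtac
Gm33391: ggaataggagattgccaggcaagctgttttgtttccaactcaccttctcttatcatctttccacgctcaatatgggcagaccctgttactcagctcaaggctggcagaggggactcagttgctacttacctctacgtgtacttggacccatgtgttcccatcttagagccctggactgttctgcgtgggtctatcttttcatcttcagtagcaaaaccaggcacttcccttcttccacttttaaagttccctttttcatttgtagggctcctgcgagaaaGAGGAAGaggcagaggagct
Gm51916: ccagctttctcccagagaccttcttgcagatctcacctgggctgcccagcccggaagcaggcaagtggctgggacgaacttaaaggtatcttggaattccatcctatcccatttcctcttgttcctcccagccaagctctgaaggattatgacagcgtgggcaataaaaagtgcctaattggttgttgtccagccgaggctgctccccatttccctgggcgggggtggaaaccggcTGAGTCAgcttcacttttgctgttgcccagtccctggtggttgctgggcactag

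In the member at Gm41546 the FOS peak was centred 28 bp upstream of the annotated start, and the member scored 87.9 from 4 calls. In that at Gm42190, with PU.1 and C/EBP letters end to end, the FOS centre lay 157 bp upstream, with a score of 50.3 from 4 calls. At Gm33391 it lay 52 bp upstream, with a score of 19.5 from 4 calls. The AP-1 letters were found in the stretch at Gm51916, a member of 1 call that scored 15.7, and in no other of the 11 stretches. Counted once per gene, windows with at least 150 bases inside a member held TGANTCA in 1 of 9, GAGGAAG in 3 of 9, TTGCNNAA in 4 of 9 and the cyclic AMP element TGACGTCA in 0 of 9. Of the 4 with C/EBP letters, 1 held them in a part of the window outside its member. The same letters stood in 7.81%, 13.6%, 10.8% and 1.79% of all promoter windows. With 9 windows the intervals are wide, from 0.281 to 48.2% for 1 of 9 and from 7.49 to 70.1% for 3 of 9, the count of both the PU.1 letters and the C/EBP letters inside a member, and no test was made. No motif contains another. These matches describe 9 windows of non-coding genes and not the other members, whose bases were not read here.

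Few members lay close to the boundary of a coding gene. Within 1 kb of a coding gene lay 22 of 721 (3.05%, 1.92 to 4.58), against 2631 of 12229 FOS-only regions between genes (21.5%, 20.8 to 22.3), a difference of -18.5 percentage points (odds ratio 0.115, adjusted exact p = 1.67e-44, two-sided Fisher's exact test with Benjamini-Hochberg adjustment over 12 tests). Over all FOS regions between genes the share was 20.5%. In regions of the IL-33 list alone between genes it was also low, at 27 of 519 (5.2%). With location set by any overlap of a region with a gene body, the shares were 1.83% and 9.19% and the difference was -7.36 percentage points, less than that by centres. Of these 22 members, 14 lay beyond the 3′ end of the gene, 2 upstream of its start, and 6 beside a gene whose strand was not listed. The FOS-only regions within 1 kb were not counted by side, so the difference is not split between gene starts and 3′ ends. Those beyond a 3′ end included members at Fcgr3, an Fc receptor for IgG (50.4, 137 bp), Mapkapk2, a kinase downstream of p38 (25.6, 102 bp), and the IL-12 subunit gene Il12b (16.9, 363 bp). The p-values treat regions as independent, although many are neighbours, and so reflect counting error and no spread between mice.

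**Figure D1:**
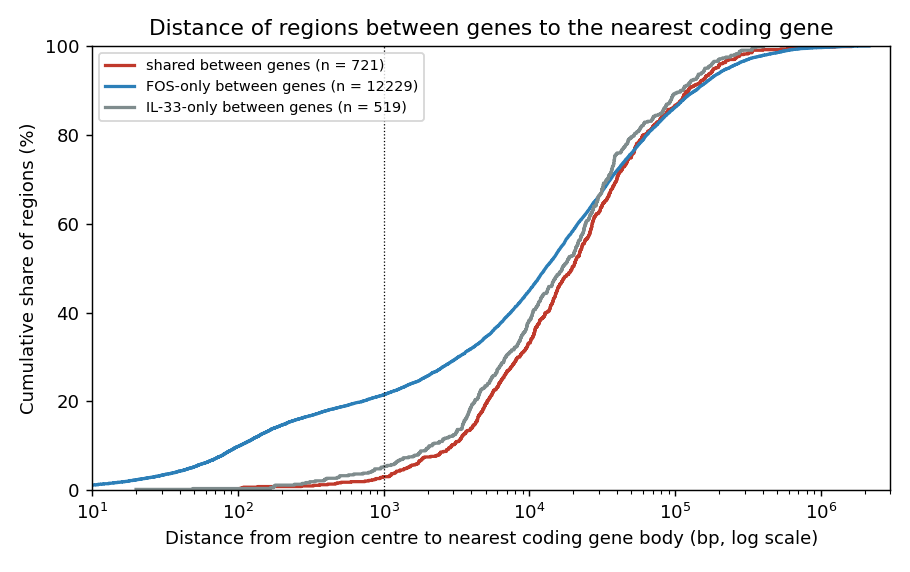
Cumulative share of regions (%) by the distance from the region's centre to the nearest coding gene body (bp, log scale), for shared, FOS-only and IL-33-only regions between genes; the dotted line marks 1 kb. At 1 kb the curve of FOS-only regions stands at 21.5%, that of the members at 3.05% and that of IL-33-only regions at 5.2%, and the 3 curves run close together beyond 50 kb.

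The members spread widely in distance. Over all 721, those within 1 kb included, the median distance to a coding gene was 19611 bp, with quartiles of 6545 and 50020 bp. Over all FOS-only regions between genes, of which a larger share lay within 1 kb, it was 12925 bp (1819 and 47528 bp). Farther than 50 kb lay 181 members (25.1%, 22 to 28.4), against 24.2% (23.4 to 25) of FOS-only and 24.2% of all FOS regions between genes (adjusted exact p = 0.789, Fisher's exact test). This comparison depended on where distances start. With only regions beyond 1 kb, an alternative added after seeing the data, the shares were 25.9% of members and 30.8% of FOS-only regions (adjusted exact p = 0.0154), and without single-call FOS regions as well 26.1% and 28.1% (adjusted exact p = 0.509). At a limit of 20 kb the members stood higher, at 49.7% against 41.5% (adjusted exact p = 4.49e-05). That setting kept the regions within 1 kb, which were a larger share of FOS-only regions than of members. It was not run on only the regions beyond 1 kb, so it does not show a difference there. Where the gene's strand was listed, 321 of 559 members (57.4%, 53.2 to 61.6) lay on the upstream side of the nearest gene. The share was 64.9% (63.9 to 65.8) of FOS-only and 48.0% (42.8 to 53.2) of IL-33-only regions between genes, a difference that was not tested. Regions within 1 kb, 21.5% of FOS-only regions and 3.05% of members, were included. The shares by side were not computed without them.

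The location rule has a threshold at the gene boundary. The members nearest to it lay 48.5 bp outside Pdgfb (score 34.3), 63 bp outside Dcps (18.9) and 102 bp outside Mapkapk2 (25.6). The shared regions just inside a gene lay 16 bp within Blm (34.5), 108 bp within Rhoc (24.0) and 198 bp from a boundary of Cnp and Dnajc7 (23.2). By any overlap of the region in place of its centre, 9 of the 721 members touched a gene body.

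The members came from 4 FOS calls more often than other FOS regions between genes. That calls count libraries was inferred from their range of 1 to 4. The numbers ending IL-33 peak names also reach 4, so the range alone does not settle this. Of the members, 410 came from 4 calls (56.9%, 53.2 to 60.5), 143 from 3, 82 from 2 and 86 from 1. Of FOS-only regions between genes, 2844 came from 4 calls (23.3%, 22.5 to 24.0) and 5093 from 1 (odds ratio for 4 calls 4.35, adjusted exact p = 9.2e-77, Fisher's exact test). Over all FOS regions 22.9% came from 4 calls. Against shared regions inside genes, which meet the same list criteria, the share of 4-call regions was 56.9% against 51.0% (47.6 to 54.5), a difference of 5.84 percentage points that did not pass (adjusted exact p = 0.0589). It passed when location was set by any overlap with a gene body (adjusted exact p = 0.0373) or when shared regions needed peak centres within 100 bp (0.0184), and it was 1 percentage point with gene bodies of every kind of gene (0.714).

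**Figure D2:**
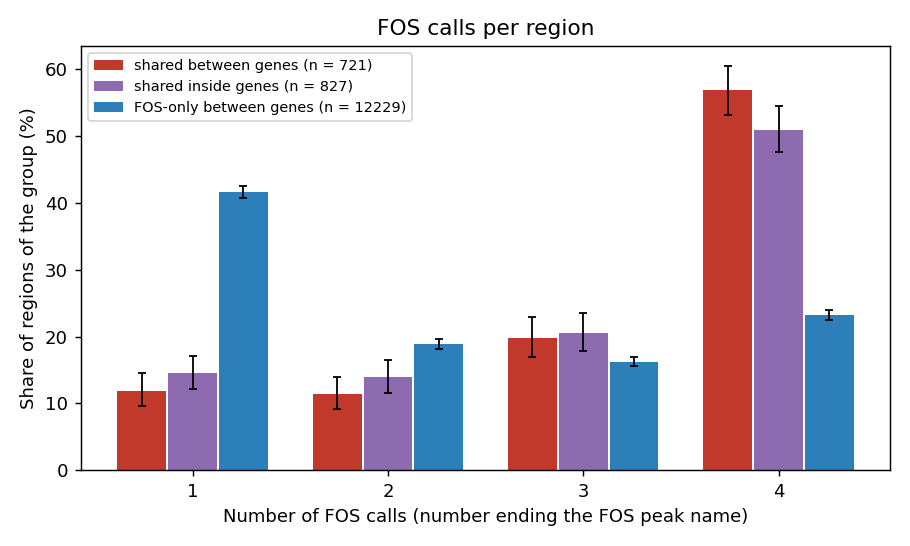
Share of regions (%) by number of FOS calls for shared regions between genes, shared regions inside genes and FOS-only regions between genes; error bars are exact 95% binomial intervals over regions. At 4 calls the bars stand at 56.9%, 51.0% and 23.3%, and at 1 call at 11.9%, 14.5% and 41.6%.

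The FOS score of a member is the deposited statistic, which the authors' merge had averaged over all peaks of the region, freed of the zeros that peaks of the IL-33 list add (restored score). The sources used here do not give its scale, and only ranks and shares within this table were read from it. The members scored from 6.6 to 111, with a median of 32.2 and quartiles of 21.4 and 43.9. Shared regions inside genes had a median of 29.5 (21.7 and 39.5) and FOS-only regions between genes one of 19.3 (11 and 29.4). At or above 20.2, the median of all FOS regions, stood 563 members (78.1%, 74.9 to 81.1), against 47.6% of FOS-only regions between genes (adjusted exact p = 3.61e-59 by Fisher's exact test) and 50.1% of all FOS regions. With the score as deposited, which the zeros of merged IL-33 peaks lower in shared regions by construction, the direction turned, at 28.7% against 49.9% (adjusted exact p = 1.25e-28). Within regions of 4 calls the shares were 93.2% and 89.5% (adjusted exact p = 0.0589), a difference of 3.65 percentage points, where it was 30.5 over all calls. Most 4-call regions of both groups stood above 20.2, which limits the difference this share can show. From 4 calls down to 1 the median scores of members were 40.8, 25.8, 20.7 and 18.1. Those of FOS-only regions between genes were 35.9, 24.5, 18.8 and 10.9, a difference that was not tested. Against shared regions inside genes the share at or above 20.2 over all calls was 78.1% against 79.3% (76.4 to 82.0, adjusted exact p = 0.789). At or above 29.7, the upper quartile of all FOS regions, it was 54.8% against 48.7% (adjusted exact p = 0.0456).

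Among the members the score did not fall with distance from genes. The median was 27.1 in the 22 members within 1 kb, 32.9 in 217 from 1 to 10 kb, 32.3 in 301 from 10 to 50 kb, 30.2 in 84 from 50 to 100 kb and 33.5 in 97 farther away. In FOS-only regions between genes the medians of the same bins were 25.1, 19.9, 17.4, 15.4 and 12.8. The members' share of 4-call regions in these bins was 50% (11 of 22), 56.7%, 57.1%, 53.6% and 60.8%. In FOS-only regions it was 20.1%, 25.5%, 24.8%, 24.9% and 19.6%, so this share changed steadily with distance in neither group. The difference between the groups in the trend of the score was not tested.

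**Figure D3:**
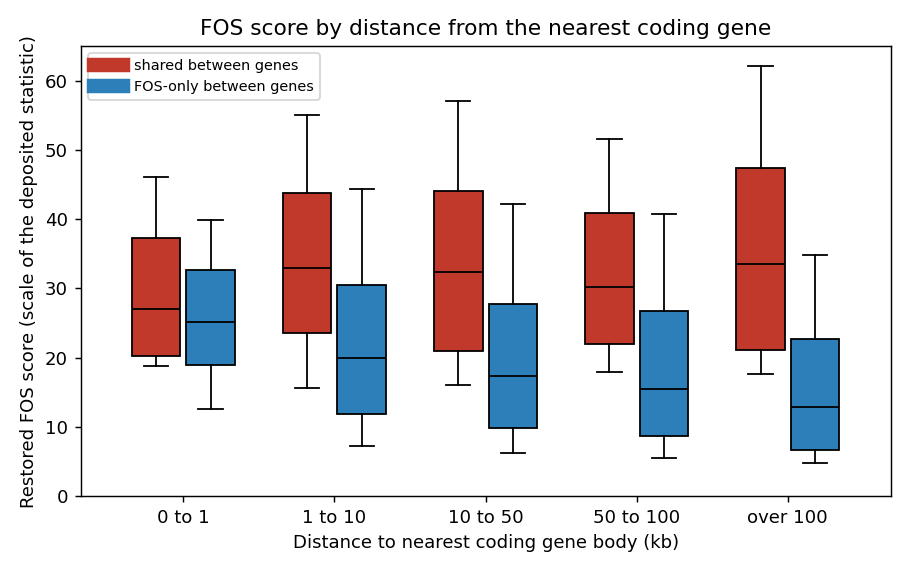
Restored FOS score (scale of the deposited statistic) by distance to the nearest coding gene body (kb) for shared and FOS-only regions between genes; boxes span the quartiles, the line is the median and whiskers reach the 10th and 90th percentiles of regions. The medians of shared regions stay between 27.1 and 33.5, while those of FOS-only regions go from 25.1 nearest to genes to 12.8 beyond 100 kb.

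Both peaks of a member lay close together, which follows in part from the selection. Only peaks that had been merged into 1 region were taken, inside genes as well, and this limits how far apart their centres can be. In the 591 members with 1 peak of each list the peak centres were a median of 35 bp apart, with quartiles of 16 and 65 bp, and 504 (85.3%, 82.2 to 88.0) had them within 100 bp. Inside genes the share was 84.9% (81.9 to 87.5, adjusted exact p = 0.894). Several peaks of 1 list had been merged in 130 members (18.0%, 15.3 to 21.0) and in 17.8% of shared regions inside genes (adjusted exact p = 0.894). Peaks of the IL-33 list carry an ending number as well, whose meaning no source used here gives. It was 2 or more in 523 members (72.5%, 69.1 to 75.8), in 73.0% of shared regions inside genes (adjusted exact p = 0.894) and in 219 of 519 IL-33-only regions between genes (42.2%, 37.9 to 46.6; adjusted exact p = 2.12e-26), with 59.4% over the whole IL-33 list. The FOS values differed with this number within the members. Of the 523 with an IL-33 number of 2 or more, 62.0% (57.6 to 66.1) had 4 FOS calls and the median score was 34.6, and of the 198 with 1 they were 43.4% (36.4 to 50.6) and 24.3.

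The 12 members of highest score were all from 4 calls. The highest score, 111, was on chromosome 17 at 29395305 to 29395805, 16020 bp beyond the 3′ end of Fgd2, an activator of the small GTPase CDC42, with the kinase gene Pim1 95230 bp away on the other side. Next came a member of 107 on chromosome 10 (37338056 to 37338644), inside the non-coding gene Gm26535 and 199424 bp from Marcks, which encodes an actin-regulating substrate of protein kinase C. A member of 102 lay 2958 bp from Crlf3 and one of 101 lay 1904 bp from Zmynd15, both on chromosome 11.

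A member of 99.9 on chromosome 2 (44956230 to 44956730) lay about midway between Gtdc1 (28763 bp) and Zeb2, 27032 bp downstream of the latter. Zeb2 encodes a zinc-finger factor that macrophages need to keep their tissue identity. A member of 91.8 on chromosome 5 (53509448 to 53509948) lay 46081 bp upstream of Rbpj, the nuclear effector of Notch signalling. One of 86.2 lay 258447 bp upstream of Runx1, a factor of blood cell development, and one of 84.7 lay 1730 bp downstream of Batf, whose product is itself a partner in AP-1 dimers. A member of 98.8 lay 164136 bp upstream of Irf2bp2, a co-repressor, with Tomm20 172542 bp away on the other side, and reached the window of Gm45805.

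The remaining members of the 12 included one of 99.5 on chromosome 10 (19185848 to 19186724), inside the non-coding gene Gm20139 and about midway between Tnfaip3 (170876 bp) and Olig3 (170253 bp). Tnfaip3 encodes A20, a ubiquitin-editing inhibitor of NF-kappaB, and Olig3 a developmental factor of neural progenitors. The others scored 87.9 at 4940 bp from the protease gene Prss30 and 81.8 at 35308 bp upstream of Rapgef5. The members farthest from any coding gene were also of 4 calls. They lay 1632822 bp from Pabpc4l (33.9, chromosome 3), 1242978 bp from Zeb2 (46.7, chromosome 2) and 724134 bp from Gm826 (26.1, chromosome 2).

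Many members shared a stretch between genes with others, as shared regions inside genes also had others nearby. The 721 members fell into 452 of the 5536 intervals between coding genes that held any region between genes. Of the members, 410 (56.9%) shared their interval with at least 1 other member. Another shared region stood within 20 kb of 322 members (44.7%, 41.0 to 48.4), against 42.4% (39.0 to 45.9) of shared regions inside genes (adjusted exact p = 0.656, Fisher's exact test), with 10.1% over all FOS regions. In IL-33-only regions between genes it was 62.4%, which is higher than in the members. A FOS-only region stood within 10 kb of 446 members (61.9%, 58.2 to 65.4), against 62.9% of shared regions inside genes, 52.9% of FOS-only and 81.7% of IL-33-only regions between genes. The 17 intervals with 5 or more members held 112 of the 721 (15.5%). Such shares by interval were not counted for other groups of regions, so 56.9% and 15.5% have no comparison here.

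The fullest interval was that between Smim20 and Rbpj on chromosome 5, 277 kb long, with 13 members, 10 of them from 4 calls, and 5 FOS-only regions. From the Smim20 side to the Rbpj side the members scored 49.5, 62.2, 21.6, 52.5, 18.1, 38.7, 37.2, 30.8, 38.1, 37.4, 91.8, 39.7 and 30.1. They began 82997 bp from Smim20 and ended 8711 bp from Rbpj, and 1 of the 13, at 37.2, rested on a single call. The interval from Id2 to Rnf144a on chromosome 12, 1211 kb long, held 8 members, all from 4 calls, and 29 FOS-only regions. These members lay between 47565 and 144444 bp from Id2, an inhibitor of helix-loop-helix factors. The long non-coding gene Gm36287 contained 7 of these 8, and the highest scored 61.9 and 61.5.

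A further 6 intervals held 7 members each, beside FOS-only regions that ranged from 3 (Fas to Ch25h) to 21 (Wwox to Maf). That between Zpld1 and Nfkbiz, the gene of the nuclear inhibitor-like factor IkappaB-zeta, had 6 of its 7 from 4 calls and a median score of 56.4. That between Runx1 and Setd4 had 3 of 7 from 4 calls, at 86.2, 69.9 and 53.4, and the other 4 members scored 25.4 or less. That between Tnfaip3 and Olig3 had 4 of 7 from 4 calls, with scores between 20.9 and 45.0 apart from the member of 99.5. Between Fas, a death receptor, and Ch25h, the enzyme that makes 25-hydroxycholesterol, 5 of 7 came from 4 calls, and Bcl6 and Lpp had 3 of 7. Between Wwox and Maf, a bZIP factor related to AP-1 proteins, 1 of 7 came from 4 calls (57.5), and no IL-33-only region lay there.

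**Figure D4:**
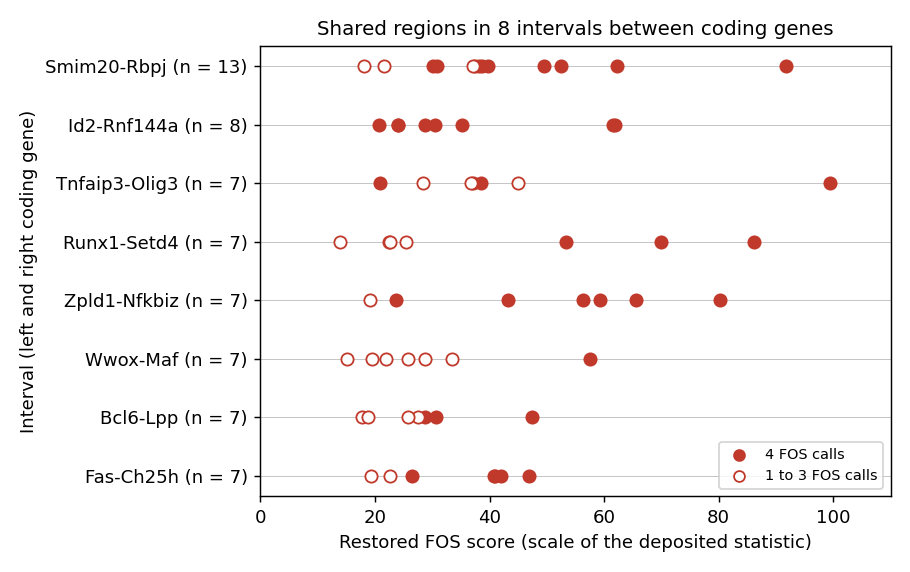
Restored FOS score (scale of the deposited statistic) of each shared region in the 8 intervals between coding genes that held the most of them; filled points came from 4 FOS calls and open points from 1 to 3. The Smim20 to Rbpj interval has 13 points up to 91.8, all 8 points of Id2 to Rnf144a are filled, and 1 of 7 points of Wwox to Maf is filled.

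For gene counts a member was assigned to its nearest coding gene body, up to 100 kb away. This gave 624 members to 451 of 21887 coding genes (2.06%), of which 347 had 1 member and 16 had 4 or more, and left 97 members without a gene. Nearness does not show which gene a region acts on. The median over these genes of the highest score was 34.3. The genes with the most members were Ch25h with 7 (highest score 46.9), Rbpj with 6 (91.8), and the B cell chemoattractant gene Cxcl13 with 6, of which 2 came from 4 calls and none scored above 30.1. Zeb2 had 5 (99.9, and the lowest at 35.2), the ATP and UTP receptor gene P2ry2 5 (63.4), Il12b 5 (61.7), Wwox 5 (57.5) and the chemokine receptor gene Ccr7 5 (33.1). Fgd2 had 4, all from 4 calls, with no FOS-only region between genes assigned to it, and Bcas1 had 4 (59.9).

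Gene groups are described by how many of their genes had a member, beside the 2.06% of all coding genes. Each share carries a wide interval, several lists hold genes that lie side by side, and no list was tested. Of the 19 lists, cytokines and chemokines, feedback inhibitors and macrophage transcription factors had the largest shares. Cytokines and chemokines had 10 of 35 (28.6%), with a median highest score of 48.3. Il1a, an interleukin-1 cytokine, had a member of 76.0 at 20548 bp upstream, and Il1b one of 44.1 at 26192 bp beyond its 3′ end. Ccl12 had one of 74.8 at 13703 bp and Ccl2 had 3 up to 56.7, both genes of monocyte-attracting chemokines. The others were Osm (46.8), Ccl5 (49.9), Cxcl2 (23.9), Csf2 (21.1), Il12b and Cxcl13.

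Feedback inhibitors had 5 of 19 genes (26.3%), with Socs3, which blocks signalling from gp130 receptors, at 56.8 and 35.5, both from 4 calls and within 7735 bp. The others were the phosphatase gene Ptpn1 (33.3), Cish (19.8), Zc3h12a, which encodes the RNase Regnase-1 that degrades cytokine mRNAs (32.2), and Zc3h12c (17.9). NF-kappaB factors and regulators had 5 of 22 (22.7%): Nfkbiz (56.4), Bcl3 (55.8), Tnfaip3 (38.5), Nfkbia, which encodes IkappaB-alpha (33.1), and Birc3 (15.4). Tnfaip3 had 4 members, all upstream at 30818 to 83430 bp, and no shared region inside the gene. None of the 5 encodes a DNA-binding Rel subunit, and the 2 members of Nfkbia came from fewer than 4 calls.

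Transcription factors of microglia and macrophages had 8 of 31 genes (25.8%). Beside Zeb2 these included Cebpb, a C/EBP factor of inflammatory myeloid cells (3 members, up to 47.2), Ikzf1 (45.1), Smad3 (34.3), Irf8 (30.1), Bcl6 (27.5) and Irf1 (16.5). AP-1 and related factors had 3 of 22 (13.6%), namely Batf, the antioxidant response factor gene Nfe2l2 with 3 members up to 66.5, and Fos itself. The members of Fos scored 34.7 and 34.1, lay 45904 and 47392 bp beyond its 3′ end, and neither came from 4 calls. Immediate early genes had 4 of 31 (12.9%), with Dusp2, a MAP kinase phosphatase gene, at 67.3, Gadd45b at 37.5, Dusp1 at 30.8 and Btg1 at 22.3.

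Surface and effector genes of microglia followed. Phagocytosis genes had 5 of 31 (16.1%): Fcgr3 (50.4), Itgam, which encodes CD11b (40.0), the signal-inhibiting ligand gene Cd47 (32.3), the lipid receptor gene Trem2 (17.2) and Itgav (14.7). Pattern recognition and scavenger receptors had 5 of 38 (13.2%), with Tlr2 at 55, 3370 bp upstream, and Tlr1 with 4 members up to 51.3. Clec5a stood at 42.5, Fpr2 at 34.8 and Marco at 30.4. Homeostatic microglia genes had 4 of 31 (12.9%), with the TGF-beta receptor gene Tgfbr2 at 64.0 and Itgam, Irf8 and Trem2 as above. Activated microglia genes had 4 of 33 (12.1%), with Cd83 at 61.2 and 44.2, Cd44 at 47.9, the lipoprotein lipase gene Lpl at 42.2, and Ch25h. Of 20 genes of IL-33 receptor and MYD88 signalling 1 had a member (5%), the kinase gene Map3k8, with a member of 36.1 at 65162 bp.

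**Figure D5:**
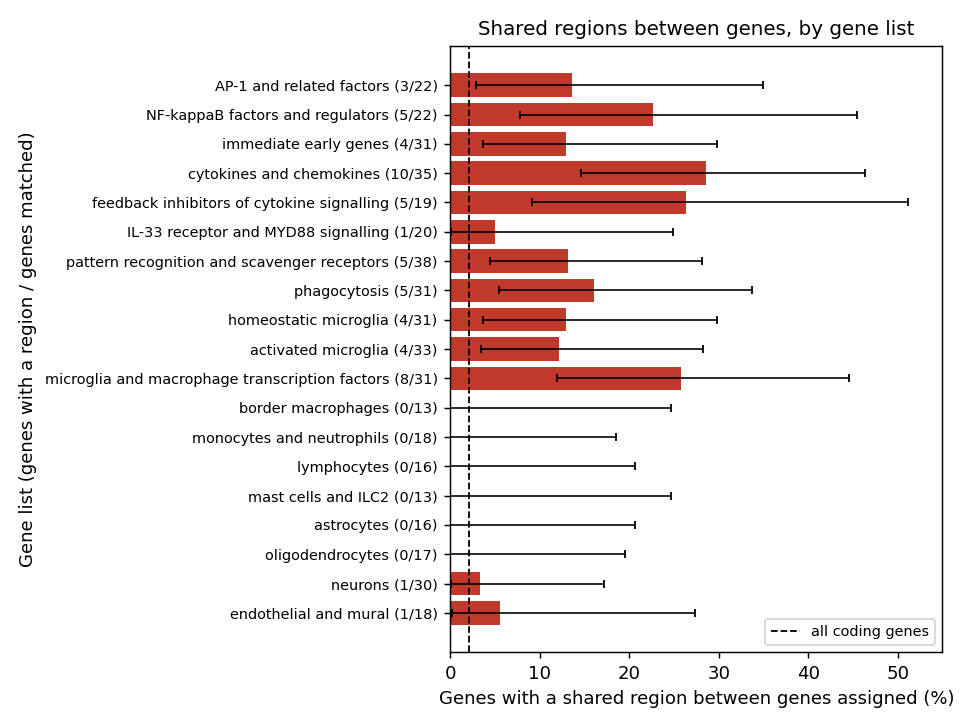
Share of the genes of each list (%) that had at least 1 shared region between genes assigned within 100 kb, with exact 95% binomial intervals over genes; the dashed line is the 2.06% of all coding genes. Cytokines and chemokines, feedback inhibitors and macrophage transcription factors stand at 28.6%, 26.3% and 25.8%, and 6 lists of other cell types stand at 0.

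Lists of markers of other brain and blood cells are too short to be set apart from the 2.06% of all coding genes. Border macrophages had 0 of 13, monocytes and neutrophils 0 of 18, lymphocytes 0 of 16, the joint list for mast cells and group 2 innate lymphoid cells 0 of 13, astrocytes 0 of 16 and oligodendrocytes 0 of 17, whose intervals reach up to between 18.5% and 24.7%. Neurons had 1 of 30, the somatostatin gene Sst, where the member had the lowest score of all (6.6). Endothelial and mural cells had 1 of 18, the tight junction gene Cldn5 (13.7). FOS peaks do not measure expression, and neither these lists nor the table can check the label of the cells as microglia.

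Non-coding genes held a part of the members, since only protein-coding bodies had been left out. Inside an annotated non-coding gene or pseudogene lay 125 members (17.3%, 14.6 to 20.3), 120 of them in long non-coding RNA genes, against 20.1% (19.4 to 20.8) of FOS-only and 20% of all FOS regions between genes (adjusted exact p = 0.152, Fisher's exact test). By any overlap with a gene body to set location the shares were 17.4% and 21.8% (adjusted exact p = 0.013). In all 102 different non-coding genes held a member. After Gm36287 the most stood in Gm26535 towards Marcks, with 4 members, all from 4 calls, at 107, 48.1, 48.1 and 40.5, and then A530072M11Rik towards Ripk2 and Gm1604a towards Fndc1, with 3 each. By chromosome, 74 members (10.3%) lay on chromosome 11 and 8 (1.11%) on the X chromosome, where FOS-only regions between genes had 7.09% and 2.98% and shared regions inside genes 8.95% and 0.726%. These chromosomes were picked after their values were seen, and no test was made.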

How the data were processed

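FOS chromatin immunoprecipitation and input libraries of 4 mice were sequenced. Per the submitters' processing notes, Bowtie2 and HOMER were used with mm10 (GRCm38), and per the file headers mergePeaks of HOMER joined the FOS peak list with the IL-33 list into 1 deposited table. Its score and its number of merged peaks have no values per library, so depth is unknown. Settings of the aligner and the peak caller, and how inputs were used, are not stated in these sources. From the deposited score a FOS score was computed as score times merged peaks divided by FOS peaks, since the score is 0 in all 1300 regions with no FOS peak. A region with several peaks took its largest number of calls. Genes came from RefSeq (GRCm38.p6, 21887 coding genes), and 3 regions off the 21 main chromosomes were left out.

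The 12 comparisons of shares used two-sided Fisher's exact tests (SciPy 1.17.1) with Benjamini-Hochberg adjustment (statsmodels 0.14.6) at 0.05. Intervals are exact Clopper-Pearson 95% intervals, which cover counting error only. The tests were tried on simulated regions that were independent, with planted differences larger than those that lay near the threshold here. That simulation does not cover regions that are neighbours. Lists matched 454 of 455 entries and hold 19 lists. Regions named are the 12 of highest score and the 3 farthest from genes, and genes named are the 10 with most members and every listed gene with a member, except 1 that is not reported here; regions at the boundary, in the fullest intervals and at promoter windows were named after their values were seen. The members and lists were chosen with earlier results of these data known. Alternatives changed the score, the location rule, the calls, the meaning of shared and the distance limits.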

Additional observations from a re-analysis of the deposited data

How the results depend on the processing

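Of 73 recomputed values, 56 kept their direction and their side of the threshold. The differences given here are percentage points, members minus comparison group. The lower share near genes (-7.36 with location by any overlap), the higher 4-call share against FOS-only regions and the higher share with an IL-33 ending number of 2 or more against IL-33-only regions passed under every alternative run. With the deposited score, where zeros from IL-33 peaks lower the mean, the share above the median differed by -21.2 from FOS-only regions and by 4.77 from shared regions inside genes. With the restored score within 4-call regions, most of both groups stood above the median (93.2% and 89.5%). The difference from FOS-only regions was 3.65 there and did not pass. Against shared regions inside genes it was 6.05 at the upper quartile and 0.675 with centres within 100 bp, and several merged peaks then differed by -0.798. The 4-call difference from shared regions inside genes passed at 6.07 with location by any overlap and at 7.44 with centres within 100 bp. Location by any overlap also gave -2.57 for regions beyond 50 kb and -4.41, which passed, for non-coding genes. The difference beyond 50 kb was -0.782 with every kind of gene, -0.333 at 100 kb and 8.2, which passed, at 20 kb. Regions within 1 kb were included in these values. Beyond the first 1 kb, added after seeing the data, the 50 kb difference was -4.92, and -2.04 without single-call regions. The 20 kb limit was not run beyond 1 kb. With 2 or more FOS calls, the IL-33 ending number and centre distance against shared regions inside genes differed by 0.0733 and -0.087. The cause of these changes was not tested beyond what each setting changes by construction. Leaving out a mouse could not be done, since no value belongs to 1 library. No paired analysis was possible because the table has no columns per library. Merged peaks could not be compared with 1 peak of each list only, nor centre distance where centres within 100 bp were required.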
